A study of Mus musculus with 9 samples.

Results

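The genes described here encode parts of the desmosome and the keratins of simple epithelia, 10 of the 23337 genes counted. The desmosomal genes were Dsg2, Dsc2, Dsp, Jup, Pkp2 and Pkp4, and the keratin genes were Krt7, Krt8, Krt18 and Krt19. The list was chosen from named genes with the read counts of these same 9 libraries already known, and no threshold was stated for it. The values of the members are therefore a description, and their tests, which were fitted and adjusted over all genes, are no independent support for the choice.

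RNA came from immortalised mouse embryonic fibroblasts (MEFs) on a C57BL/6 x 129 background in which Cebpb is knocked out. The cells stably carried the empty vector (EV), rat C/EBPβ-LAP or rat C/EBPβ-LIP under Zeocin selection, with 3 libraries in each group. LAP is the long and LIP the short protein isoform of the transcription factor C/EBPβ, and the functional mouse gene was absent from all 3 groups, EV included. Passage, and whether each line was a clone or a pool, are not given in the sources used here, nor is it stated that the libraries of a group came from separate cultures. The p-values then measure only the spread between these libraries, which may be technical.

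A desmosome is a spot-like junction that ties the keratin filaments of neighbouring cells together. Desmosomal cadherins, the desmogleins and desmocollins, cross the membrane and bind each other between the cells. Inside the cell, plakoglobin and the plakophilins hold the cadherin tails, and desmoplakin connects this plaque to the filaments. Keratins are built from pairs of a type I and a type II chain. The pair of keratin 8 and keratin 18 is typical of simple, single-layered epithelia and of mesothelium, and it is often joined by keratin 7 and keratin 19. In fibroblasts the main intermediate filament is vimentin.

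Between 24839139 and 33522082 reads were counted on genes per library, and 3 counts, the floor used here, stood for 0.0895 to 0.121 CPM, the unit used below for counts brought to one library size. Pearson's r of log2 CPM over 11535 genes ran from 0.990 to 0.995 within EV, from 0.977 to 0.986 within LAP and from 0.970 to 0.979 within LIP, across genes, which are not independent replicates. Of the 10 members, 6 had their highest CPM in LIP3, 2 in LIP2, 1 in LIP1, 1 in LAP3 and 0 in an EV library. Of all genes, 16.3% had their highest CPM in LIP3, 19.2% in LIP2, 7.99% in LIP1 and 8.38% in LAP3. The shares were 18.9% in LAP2, 8.43% in LAP1 and 5.71%, 6.30% and 8.74% in EV1 to EV3. Values without LIP3 are given for Dsg2, Dsc2, Dsp, Jup, Krt19, Krt14 and Cdsn and for the medians over the members. Fibroblast markers summed to at least 17070 CPM and the 5 mesothelial markers to at least 3260 CPM in every library.

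**Figure D1:**
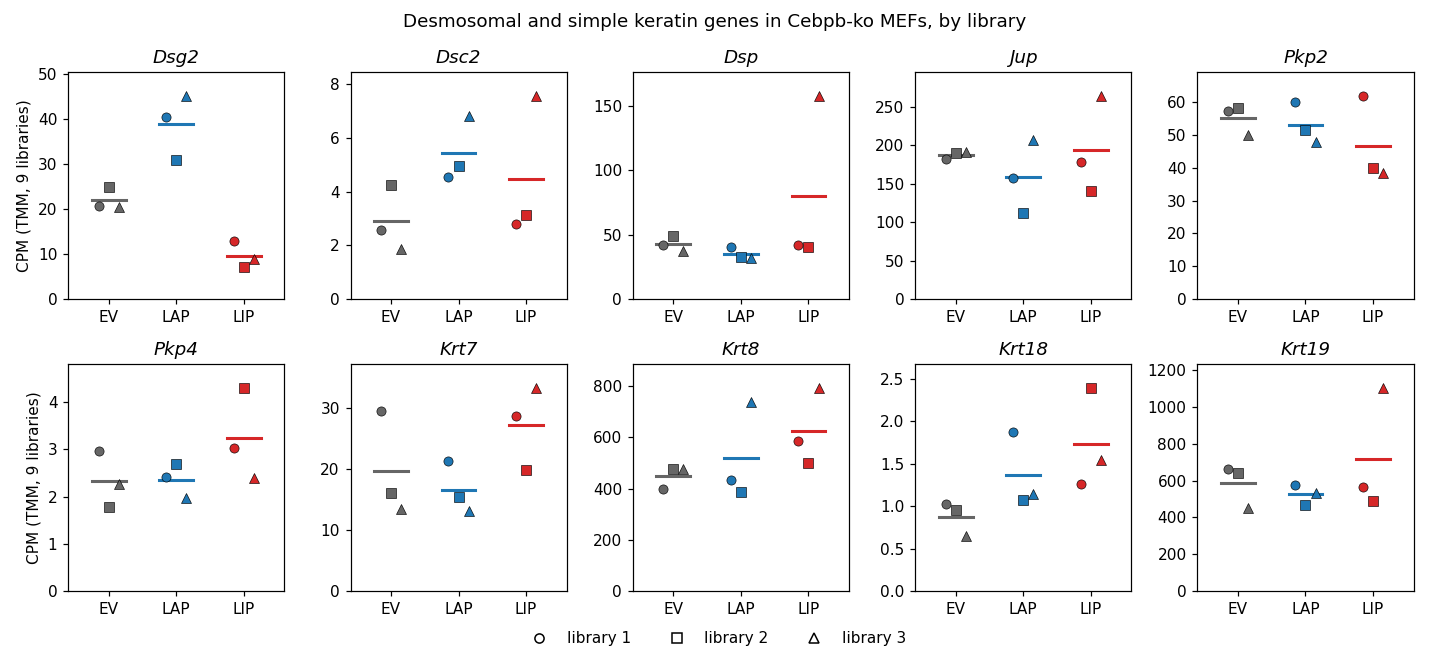
CPM of each of the 10 genes (y axis, scaled by TMM over the 9 libraries) in the EV, LAP and LIP groups, with 1 point per library and a bar at the group mean. Dsg2 separates the 3 groups, with LIP at 7.14 to 12.8, EV at 20.4 to 24.8 and LAP at 30.9 to 45.0 CPM, whereas the high LIP value of Dsp is that of a single library.

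Dsg2 was the member in which the groups stood furthest apart. It encodes desmoglein-2, the desmosomal cadherin found in simple epithelia and heart. Its CPM were 20.5, 24.8 and 20.4 in EV1 to EV3, 40.5, 30.9 and 45.0 in LAP1 to LAP3, and 12.8, 7.14 and 8.95 in LIP1 to LIP3. Every LIP library lay below every EV library, and every EV library lay below every LAP library. These levels rest on 218 to 1312 reads per library. The means were 21.9 ± 2.54 CPM in EV, 38.8 ± 7.19 CPM in LAP and 9.62 ± 2.88 CPM in LIP (SD, n = 3 each).

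Dsg2 fell in LIP against LAP, with a log2 fold change of -2.0 ± 0.27 (SE, edgeR quasi-likelihood test, Benjamini-Hochberg adjusted p = 0.00131). This difference passed the threshold of 0.05 with each of the 6 libraries left out in turn. It also passed in the edgeR fit with the replicate number as a block, at -2.02 (adjusted p = 3.48e-14). It missed the threshold when genes with low counts were removed by filterByExpr, with a log2 fold change of -2.0 and an adjusted p = 0.0869 by edgeR. Against EV, the log2 fold change of Dsg2 was -1.19 ± 0.23 in LIP (SE, edgeR adjusted p = 0.0536), which did not pass. Whether it passed turned on single libraries and on the model. It passed without LIP1, at -1.44 (edgeR adjusted p = 0.0155), and without LIP3, at -1.13 (edgeR adjusted p = 0.0249). With all 6 libraries it passed by DESeq2, at -1.18 (adjusted p = 0.000697), and in edgeR's model of all 9 libraries, at -1.19 (adjusted p = 0.0167). With the replicate block it passed at -1.22 (edgeR adjusted p = 0.00707). In LAP against EV it was 0.82 ± 0.18 (SE, edgeR adjusted p = 0.301). In the edgeR fit that paired libraries of the same number as a replicate block, the LAP value was 0.80 and passed, with an adjusted p = 0.0335.

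Most fibroblast markers, like Dsg2, lay lower in LIP. The summed level of the 16 fibroblast markers was 35370 to 39850 CPM in EV, 29560 to 43320 CPM in LAP and 17070 to 30350 CPM in LIP. In LIP against EV, 15 of the 16 markers had a log2 fold change below 0, beside 8369 of all 18203 genes. Their median was -0.99, and 1 of them, Postn, passed the threshold at -2.40 (edgeR adjusted p = 0.0481). Vim, Twist1 and S100a4 hardly differed, at -0.07, -0.04 and 0.02. In LAP against EV the median of the markers was -0.05, while Dsg2 stood at 0.82. The study reported that genes lowered by LIP clustered in extracellular matrix, cell adhesion and collagen. The call of Postn was lost without EV1, without EV2 and without LIP2 (edgeR adjusted p = 0.0588, 0.161 and 0.136). It was also lost with DESeq2's size factors, with total counts only and with filterByExpr (edgeR adjusted p = 0.0537, 0.0736 and 0.176). In LIP against LAP, 15 of the 16 again lay below 0, with a median of -1.02, and Fap, Prrx1 and Postn passed. Each lost its call without LAP2 and without LIP2 (edgeR adjusted p = 0.0713 to 0.205), Prrx1 and Postn also without LAP1 and Prrx1 also without LIP1. Each also lost it with filterByExpr (edgeR adjusted p = 0.193 to 0.24). With total counts only, Prrx1 and Postn lost it (edgeR adjusted p = 0.0775 and 0.0715). LIP2 had the lowest fibroblast sum and also the lowest Dsg2. LAP2, in contrast, had a lower fibroblast sum than LIP1 (29560 and 30350 CPM) but a higher Dsg2 (30.9 and 12.8 CPM). The part of these markers in the Dsg2 difference was not tested. In bulk RNA, fewer cells of a type and less RNA per cell cannot be told apart.

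Dsc2, which encodes the desmocollin that partners desmoglein-2, was counted at a lower level and with a wider spread. Its CPM were 2.58, 4.24 and 1.85 in EV, 4.56, 4.96 and 6.81 in LAP, and 2.78, 3.11 and 7.56 in LIP. All 3 LAP libraries lay above all 3 EV libraries, and the LIP libraries overlapped both groups. Against EV, Dsc2 had a log2 fold change of 0.91 ± 0.29 in LAP and of 0.64 ± 0.41 in LIP (SE, edgeR adjusted p = 0.918 and 0.637). Without LIP3 the LIP value was 0.05. The value for LIP against LAP was -0.26 ± 0.36 (SE, edgeR), and -0.86 without LIP3. Dsg2 and Dsc2 were the cadherins with appreciable counts, since the 7 other desmosomal cadherin genes had between 0 and 10 reads in any library, the highest being Dsg3.

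Of the plaque genes, Jup was the highest. It encodes plakoglobin, a catenin shared by desmosomes and adherens junctions. Its CPM were 181.8, 189.5 and 191.3 in EV, 157.1, 112.5 and 207 in LAP, and 178.5, 140.1 and 264.1 in LIP. The EV libraries lay close together and inside the range of both other groups. For Jup, log2 fold changes were 0.05 ± 0.21 in LIP against EV, -0.25 ± 0.20 in LAP against EV and 0.30 ± 0.27 in LIP against LAP (SE, edgeR), with none past the threshold. Without LIP3, Jup stood at -0.23 in LIP against EV and at 0.02 in LIP against LAP.

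Dsp encodes desmoplakin, the linker from the plaque to the keratin filaments. Its CPM were 41.8, 49.2 and 37.4 in EV, 40.8, 32.5 and 31.6 in LAP, and 42.0, 40.0 and 157.7 in LIP. LIP3 thus stood at more than any other library, while LIP1 and LIP2 lay inside the EV range. The SD was 84.3% of the mean in LIP and 13.9% of the mean in EV. The log2 fold change of Dsp in LIP against EV was 0.90 ± 0.41 (SE, edgeR adjusted p = 0.455), and without LIP3 it was -0.05 (edgeR adjusted p = 0.907). In LIP against LAP it was 1.21 ± 0.37 (SE, edgeR adjusted p = 0.177). This difference passed in the fit with the replicate block, at 0.88 (edgeR adjusted p = 0.00229). It also passed without LAP1, at 1.34 (edgeR adjusted p = 0.0449), and without LIP2, at 1.53 (edgeR adjusted p = 0.0487), but was 0.25 without LIP3.

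**Figure D2:**
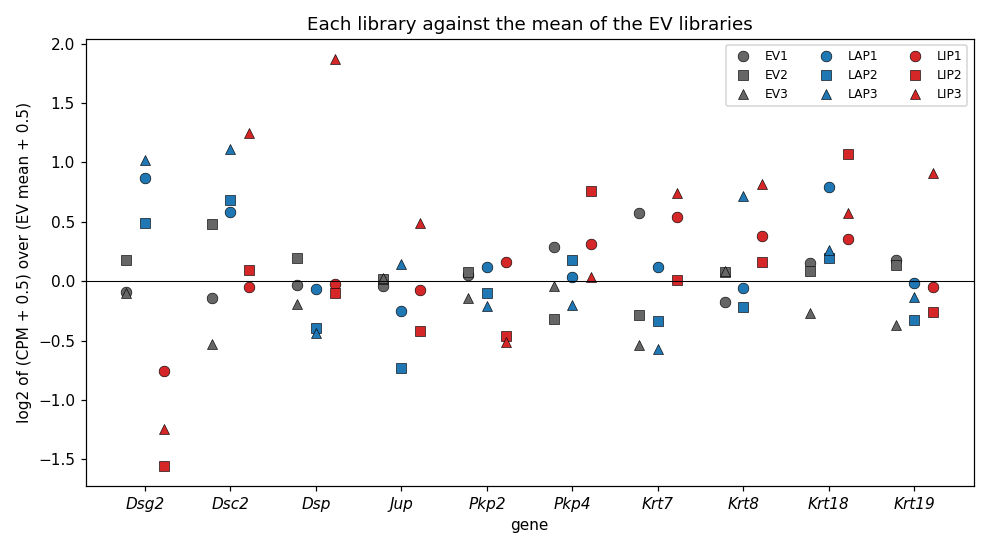
Level of each gene in each of the 9 libraries (y axis, log2 of CPM + 0.5 over the mean of the EV libraries + 0.5), with colours for the groups and symbols for the library numbers. LIP3 (red triangles) lies highest for 6 of the 10 genes, and Dsg2 is the gene whose LIP libraries all lie below the EV libraries.

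The plakophilins, which bind cadherin tails and desmoplakin, overlapped between groups. The CPM of Pkp2, the plakophilin of simple epithelia and heart, were 57.4, 58.3 and 50 in EV, 60.0, 51.6 and 47.8 in LAP, and 61.9, 39.9 and 38.5 in LIP. The 3 groups overlapped, with log2 fold changes of -0.24 ± 0.19 in LIP against EV, -0.06 ± 0.15 in LAP against EV and -0.17 ± 0.23 in LIP against LAP (SE, edgeR). Pkp4, a relative of p120 catenin found at both desmosomes and adherens junctions, had 2.96, 1.77 and 2.26 CPM in EV, 2.41, 2.70 and 1.96 CPM in LAP, and 3.02, 4.29 and 2.39 CPM in LIP. These groups overlapped as well, and the log2 fold change was 0.47 ± 0.31 in LIP against EV and 0.48 ± 0.33 in LIP against LAP (SE, edgeR). None of these values passed the threshold.

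Krt19 and Krt8 were the members with the most reads. Krt8 encodes keratin 8, the type II chain of the simple keratin pair. Its CPM were 397.2, 475.1 and 477 in EV, 432.1, 386.8 and 738.1 in LAP, and 586.6, 501.9 and 792 in LIP. The 3 LIP libraries were all above the 3 EV libraries, whereas LAP3 lay among the LIP libraries, LAP1 lay inside the EV range and LAP2 just below it. The log2 fold change of Krt8 was 0.48 ± 0.20 in LIP against EV (SE, edgeR adjusted p = 0.411), 0.20 ± 0.23 in LAP against EV and 0.28 ± 0.30 in LIP against LAP (SE, edgeR). The LAP value against EV rested on LAP3, without which it was -0.15. A caution on Krt8 is that 29.7% of the 50-base windows of its transcript also occur in other annotated transcripts, most of them in the pseudogene Krt8-ps, and how reads with several alignments were counted is not stated.

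Krt19 encodes keratin 19, a small type I chain. Its CPM were 660.8, 643 and 452.7 in EV, 578.3, 466.3 and 533.8 in LAP, and 566.7, 489.5 and 1102 in LIP. LIP3 was again the highest library, and the other LIP libraries lay inside the EV range. Its log2 fold change in LIP against EV was 0.30 ± 0.28 (SE, edgeR adjusted p = 0.706) and -0.14 without LIP3. It was -0.16 ± 0.20 in LAP against EV and 0.47 ± 0.30 in LIP against LAP (SE, edgeR), where it was 0.02 without LIP3.

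Krt7, the type II keratin of glandular and simple epithelia, had 29.5, 16.1 and 13.4 CPM in EV, 21.3, 15.4 and 13.1 CPM in LAP, and 28.7, 19.8 and 33.2 CPM in LIP. Library 1 was the highest of its group in EV and in LAP, and the groups overlapped. The log2 fold change of Krt7 was 0.47 ± 0.28 in LIP against EV (SE, edgeR adjusted p = 0.61) and -0.25 ± 0.27 in LAP against EV, where it was 0.16 without EV1 (SE, edgeR). In LIP against LAP it was 0.73 ± 0.26 (SE, edgeR adjusted p = 0.292), and it passed in the fit with the replicate block, at 0.73 (edgeR adjusted p = 0.00897).

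Krt18 encodes keratin 18, the type I partner of keratin 8. It was the least counted member, with 22 to 73 reads per library and 355 reads in all. Its CPM were 1.03, 0.959 and 0.644 in EV, 1.88, 1.08 and 1.15 in LAP, and 1.27, 2.39 and 1.55 in LIP. All LAP and all LIP libraries lay above all EV libraries. For LAP the margin was small, with 30 reads (1.08 CPM) in LAP2 and 33 reads (1.03 CPM) in EV1. The order of these libraries rested on the TMM scaling. Against EV, the log2 fold change of Krt18 was 0.99 ± 0.36 in LIP and 0.64 ± 0.33 in LAP (SE, edgeR adjusted p = 0.314 and 0.918). The value for LIP against LAP was 0.36 ± 0.38 (SE, edgeR).

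**Figure D3:**
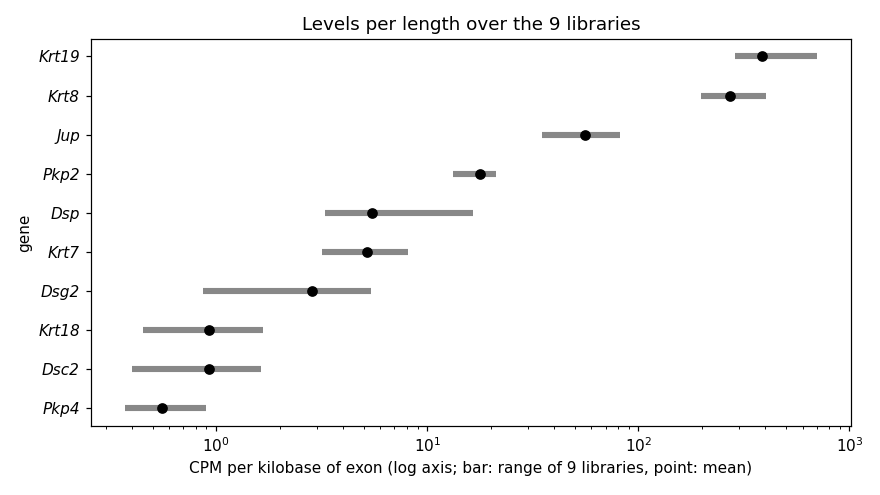
Level of each gene per length (x axis, CPM per kilobase of exon on a log scale), with a point at the mean of the 9 libraries and a bar over their range. Krt19 and Krt8 lie at the top with means of 387.3 and 271.6, and Krt18, Dsc2 and Pkp4 lie below 1.

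Per kilobase of exon, Krt19 had a mean of 387.3 CPM over the 9 libraries and Krt8 had 271.6 CPM. Jup followed at 56.0, Pkp2 at 17.7, Dsp at 5.48, Krt7 at 5.17, Dsg2 at 2.83, Krt18 at 0.924, Dsc2 at 0.923 and Pkp4 at 0.553 CPM per kilobase. Along this order the ranges of neighbouring genes overlapped, except between Krt8 and Jup and between Jup and Pkp2. The per-length level of Krt8 was 154 to 543.3 times that of Krt18, its usual partner, in the same library. Levels of different genes in this table carry a further uncertainty. Among genes above 1 CPM, the median level was 43.1 CPM for the 5459 genes with 1 RefSeq mRNA and 10.1 CPM for the 341 genes with at least 6. Pkp4 has 12 RefSeq mRNAs, Dsc2 has 3, Krt19 has 2 and the other members have 1, and the cause of this relation was not tested. Some widely expressed genes were also counted low over the 9 libraries. Tpm1 had 0.333 to 2.05, Ctnnb1 5.68 to 17.2 and Plec 3.36 to 6.09 CPM, whereas Gapdh had 87.1 to 146.6 and Actb 2203 to 4203 CPM. A low count, such as that of Krt18, may therefore not be a low RNA level.

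Krt8 and Krt18 are neighbours in the genome, on opposite strands of chromosome 15 and 23873 bases apart. Krt8 spans chr15:101996711-102004342 on the minus strand and Krt18 spans chr15:102028216-102032026 on the plus strand (GRCm38.p6, RefSeq). The 250 bases upstream of the starts of Krt8 (chr15:102004343-102004592, minus strand) and Krt18 (chr15:102027966-102028215, plus strand) are shown because these genes were counted at so different a level, and those of Dsp (chr13:38151044-38151293, plus strand) because of its high value in LIP3. The sequences are from RefSeq on GRCm38.p6, run from 5′ to 3′ along each gene, and capitals mark GC boxes, the letters GGGCGG on either strand.
Krt8: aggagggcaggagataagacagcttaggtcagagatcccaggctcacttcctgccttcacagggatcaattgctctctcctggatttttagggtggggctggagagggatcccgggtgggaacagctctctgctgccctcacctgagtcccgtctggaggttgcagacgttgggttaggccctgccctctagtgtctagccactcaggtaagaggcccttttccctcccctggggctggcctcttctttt
Krt18: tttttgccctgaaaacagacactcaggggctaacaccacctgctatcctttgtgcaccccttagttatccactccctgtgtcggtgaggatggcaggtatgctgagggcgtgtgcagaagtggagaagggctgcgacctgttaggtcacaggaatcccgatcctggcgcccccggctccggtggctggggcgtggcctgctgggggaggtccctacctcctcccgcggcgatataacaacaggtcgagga
Dsp: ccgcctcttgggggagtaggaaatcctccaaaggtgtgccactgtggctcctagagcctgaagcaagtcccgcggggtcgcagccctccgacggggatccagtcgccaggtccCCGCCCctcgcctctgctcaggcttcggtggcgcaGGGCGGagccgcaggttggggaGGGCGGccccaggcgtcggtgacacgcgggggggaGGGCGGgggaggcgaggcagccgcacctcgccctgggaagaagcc
The Dsp window holds 4 GC boxes, and the windows of Krt8 and Krt18 hold 0. Windows of Dsg2 and Dsc2 were left out of this search, so nothing is said here of their upstream sequences. Among the other members, 6 had windows of this length, namely Dsp, Jup, Krt7, Krt8, Krt18 and, with 2 windows, Pkp4. Together these are 7 windows. Of these, 2 do not end at the gene start. The Jup window (chr11:100397791-100398040) reaches into the Jup gene, and the second Pkp4 window (chr2:59161619-59161868) lies inside the Pkp4 gene. The Krt7 window holds 4 GC boxes, the Jup window 2 and the first Pkp4 window 5, and 32.7% of all 32851 windows of this length hold at least 1. The C/EBP core TTGCNNAA, searched on both strands, was found in 0 of the 7 windows and in 9.56% of all windows. The AP-1 motif TGANTCA was found in 0 of the 7 and in 6.75% of all windows, and the TATA box TATAAA in 0 of the 7 and in 12.4% of all windows. With so few windows, these counts say only that the letters are not present there.

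**Figure D4:**
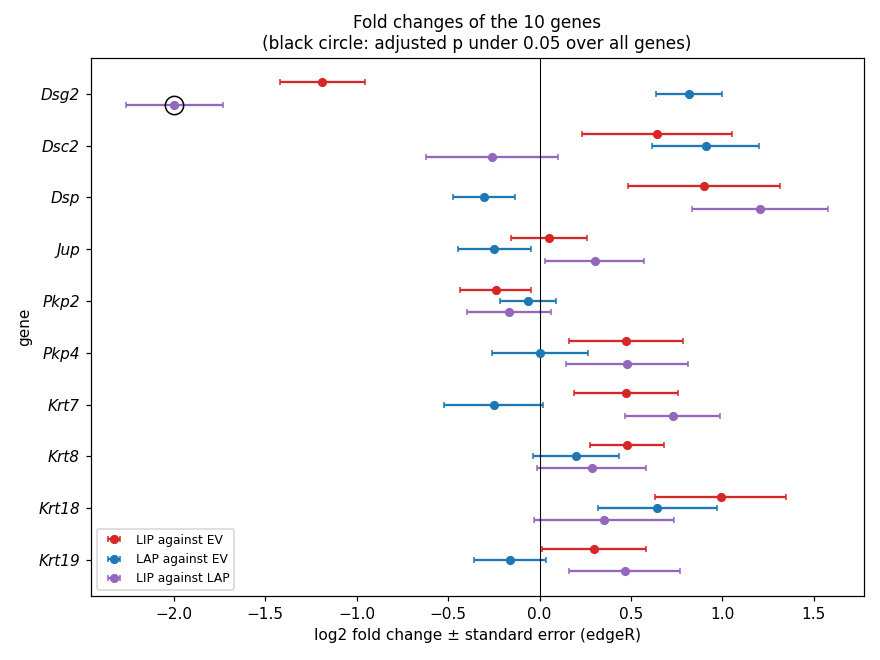
Log2 fold change of each gene (x axis, edgeR, with 1 SE to each side) in LIP against EV, LAP against EV and LIP against LAP. Dsg2 lies at -1.19, 0.82 and -2.0 in these comparisons, and its value in LIP against LAP, ringed in black, is the one with an adjusted p under 0.05 over all genes. These are the main fits, which hold no term for the replicate number.

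Counted over the list, 0 of the 10 members passed the threshold in LIP against EV by edgeR, and DESeq2 called 1, Dsg2. Over all 18203 genes tested, 0.330% were called lower and 0.0659% higher. At an unadjusted p below 0.05 there was 1 member lower and there were 3 higher, beside 6.75% of all genes lower and 4.23% higher. The groups did not overlap for 1 member that was lower, Dsg2, and for 2 that were higher, Krt8 and Krt18, against 8.83% of all genes lower and 6.80% higher. The median log2 fold change of the members was 0.47, and for all genes counted at 20 reads or more on average it was 0.015. The median of the members rested on LIP3, without which it was -0.00295, with 5 of the 10 members below 0 instead of 2.

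In LAP against EV, edgeR called 0 members, and DESeq2 called 0. With the replicate block, edgeR called 1 member, Dsg2, beside 30 lower and 24 higher of all 18156 genes. Without the block, the shares of all genes called by edgeR were 0.0330% lower and 0.0275% higher. Before adjustment, 0 members lower and 2 higher had a p below 0.05, beside 1.34% of all genes lower and 1.93% higher. The members without overlap were Dsg2, Dsc2 and Krt18, all 3 higher in LAP, beside 3.81% of all genes higher and 3.76% lower. For Krt18 this rested on the TMM scaling. The median over the members was -0.03, and 0.13 without EV1. In LIP against LAP, edgeR called 1 member, Dsg2, which was also the 1 member without overlap. With the replicate block, edgeR called Dsg2, Dsp and Krt7, beside 871 lower and 312 higher of all 18166 genes. Without the block, 0.837% of all genes were called lower and 0.209% higher, and 6.58% lay lower and 6.23% higher without overlap. Before adjustment, 1 member lower and 2 higher had a p below 0.05, beside 5.98% of all genes lower and 3.30% higher. The median over the members was 0.33, and it was 0.05 without LIP3 and 0.14 without LAP2. As the members were chosen with these values known, nothing is read from these counts against the shares of all genes. LIP against EV and LAP against EV share the 3 EV libraries.

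The other genes of these structures were followed in 6 lists of 79 genes, which hold other desmosomal genes, other keratins, other intermediate filaments, cytolinkers with the hemidesmosome, adherens junction catenins and tight junction genes. Of these, 35 had a mean of at least 20 counts and 6 had no count in any library. By edgeR, 0 passed the threshold in each of the 3 comparisons. At an unadjusted p under 0.05 there were 4 lower and 5 higher in LIP against EV, 2 lower and 1 higher in LAP against EV, and 3 lower and 4 higher in LIP against LAP. The genes tested were 73, 67 and 70 in these comparisons, and the shares of all genes were those given above for the members. DESeq2 called 1 of them, Cdsn, in LIP against EV, where it called 248 lower and 73 higher of all 18203 genes. It called 0 of them in the other comparisons. Cdsn, the corneodesmosome protein of cornified epidermis, was singled out after its values were seen and stood at 11.2, 6.98 and 26.5 CPM in LIP and at 5.29, 4.72 and 7.09 CPM in EV. LIP2 lay inside the EV range, and the LIP mean was 14.9 CPM with LIP3 and 9.10 CPM without it. Its log2 fold change in LIP against EV was 1.39 (edgeR adjusted p = 0.186) and 0.68 without LIP3.

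Among the other desmosomal genes, 5 of 13 had a mean of at least 20 counts. The highest were Ppl, which encodes periplakin and had a mean of 374.4 CPM, Perp at 60.6 CPM and Pkp1 at 15.3 CPM, while Dsg1b and Dsg1c were at 0. The log2 fold change of Ppl in LIP against EV was -0.42 ± 0.17 (SE, edgeR adjusted p = 0.404), and its 3 LIP libraries lay below all EV libraries. Perp, a membrane protein of desmosomes, stood at 0.61 ± 0.28 in the same comparison (SE, edgeR adjusted p = 0.453).

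Of the 21 other keratins, 5 reached a mean of 20 counts, with Krt14 at 161.8 CPM, Krt80 at 19.3 CPM and Krt10 at 5.40 CPM, and Krt1, Krt6a and Krt6b were at 0. Krt14, the type I keratin of basal layers, had 198.1 ± 25.6 CPM in EV, 152.6 ± 79.8 CPM in LAP and 134.6 ± 64.8 CPM in LIP (SD, n = 3 each). Its log2 fold change against EV was -0.56 ± 0.27 in LIP and -0.38 ± 0.28 in LAP (SE, edgeR), and both passed when library 3 of the treated group was left out, at -1.0 without LIP3 and -0.90 without LAP3 (edgeR adjusted p = 0.0186 and 0.0453). Krt80 had a log2 fold change of 0.62 ± 0.24 in LIP against LAP (SE, edgeR adjusted p = 0.348), which passed with the replicate block at 0.62 (edgeR adjusted p = 0.0375). Cdsn passed with the same block, at 1.04 (edgeR adjusted p = 0.00108).

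Vim, the filament gene of fibroblasts, had 4556 ± 413 CPM in EV, 4576 ± 512 CPM in LAP and 4348 ± 893 CPM in LIP (SD, n = 3 each), and the groups overlapped. Of the non-keratin filament genes, 7 of 14 reached a mean of 20 counts, the next being the lamin genes Lmnb1 at 265.1 CPM and Lmna at 152.9 CPM. The hemidesmosomal integrin gene Itga6 was at 68.5 CPM, the cytolinker genes Dst and Macf1 were at 22.9 and 7.36 CPM, and 5 of the 8 genes of that list reached a mean of 20 counts. Among adherens junction genes 7 of 9 did so, led by Ctnna1 (alpha-catenin) at 693.8 CPM, Vcl (vinculin) at 670.8 CPM and Mllt4 (afadin) at 236.9 CPM, with Ctnna3 at 0. Tight junction genes did so in 6 of 14 cases, with F11r at 184.1 CPM, Cgn at 55.7 CPM and Tjp1 at 4.84 CPM. F11r, the junctional adhesion molecule A gene, lay lower without overlap in LIP against LAP, at -0.42 ± 0.25 (SE, edgeR adjusted p = 0.696).

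**Figure D5:**
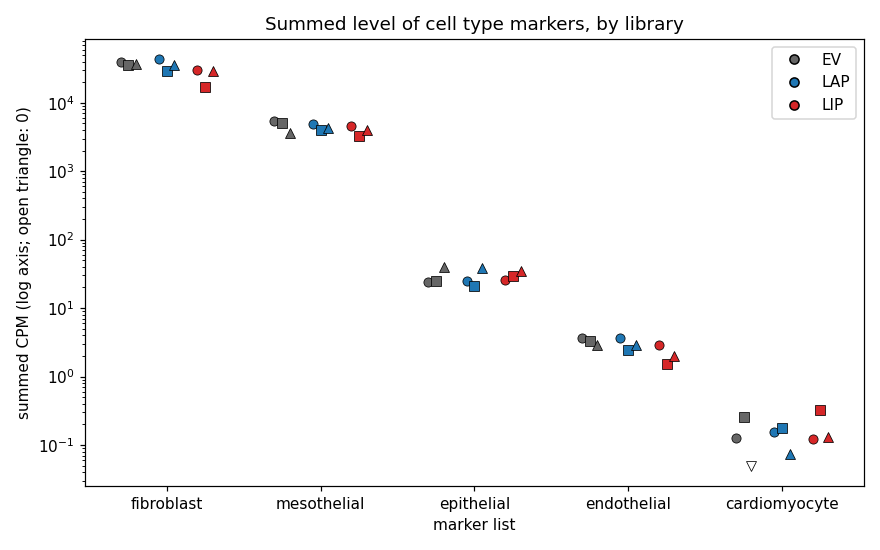
Summed CPM of the marker genes of 5 cell types (y axis, log scale) in each of the 9 libraries, with colours for the groups and symbols for the library numbers. Fibroblast and mesothelial markers lie at 3260 CPM or more in every library, epithelial markers between 21.1 and 39.8 CPM, and endothelial and cardiomyocyte markers below 4 CPM.

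The label of the cells was set against marker genes. Fibroblast markers summed to at least 17070 CPM in every library, led by Fn1, Col1a1 and Col1a2. Other markers of that list were counted low, with Pdgfra at 0.524 to 2.93 CPM, Pdgfrb at 0.0969 to 1.73 CPM and Lum at 0 reads in all 3 LIP libraries. As stated above for the members, a low count of a marker may not be a low RNA level. Mesothelium is a tissue in which simple keratins and desmosomes occur, and the 5 mesothelial markers summed to 3650 to 5452 CPM in EV, 4006 to 4977 CPM in LAP and 3260 to 4639 CPM in LIP, so the groups overlapped. In LIP against EV, 3 of the 5 had a log2 fold change below 0, and the values ran from -0.51 for Upk1b to 0.14 for Wt1. Of the 16 epithelial markers, 3 had a mean of at least 20 counts, namely Spint1, Esrp2 and Cdh1, and Trp63 was at 0 in all libraries. The epithelial sum was 24.3 to 39.8 CPM in EV, 21.1 to 38.7 CPM in LAP and 26.0 to 34.8 CPM in LIP. The epithelial markers did not lie on one side, with 7 of the 15 tested below 0 and 8 above 0 in LIP against EV. Cdh1, the gene of E-cadherin, had 3.26 ± 0.553 CPM in EV, 2.14 ± 0.636 CPM in LAP and 1.52 ± 0.854 CPM in LIP (SD, n = 3 each). Esrp2, an epithelial splicing regulator, had 10.9 ± 1.61, 10.6 ± 2.68 and 17.3 ± 2.98 CPM in these groups, and Spint1 had 13.9 ± 7.42, 14.3 ± 5.70 and 10.1 ± 2.14 CPM (SD, n = 3 each). None of these 3 genes passed the threshold by edgeR. The cardiomyocyte sum was at most 0.328 CPM, with Myh6 and Tnnt2 at 0, and the endothelial sum was 1.54 to 3.64 CPM, with Pecam1 and Emcn at 0. The part of these markers in the levels of the 10 genes was not tested.

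The library kit does not mark strand, so reads from a gene and from its antisense partner cannot be told apart. Dsg2 overlaps the antisense gene Gm16090, Dsp overlaps Gm10129, Krt7 overlaps Gm671 and Krt8 overlaps Gm36026. Of the 50-base windows of the transcripts, 5.07% in Dsg2 and 4.72% in Dsp also occur in other annotated transcripts, 0.720% in Krt18, 0.222% in Krt7 and 0 in Dsc2, Jup, Pkp2, Pkp4 and Krt19. Besides Krt8 and Krt18, Dsp lies at chr13:38151294-38198577, Jup at chr11:100368856-100397839, Krt19 at chr11:100140810-100145926, Pkp2 at chr16:16213345-16272712 and Pkp4 at chr2:59160850-59355205 (GRCm38.p6, RefSeq).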

How the data were processed

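RNA-seq was analysed from 9 libraries, 3 each of Cebpb-ko MEFs with EV, LAP and LIP. Libraries were made with TruSeq RNA v2 and read as single 50-base ends. The authors aligned the reads with TopHat 1.4.1, counted them per gene with HTSeq 0.5.4 on RefSeq genes, and deposited raw counts for 23337 symbols without normalization. The submitters' processing notes also name bcl2fastq 1.8.3. The strand setting and the handling of reads with several alignments are not given in the sources used here.

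The members and all gene lists were chosen with earlier results of these data known. Groups were read from the labels of the columns, of which 0 stayed unused. Each comparison used its 6 libraries and every gene with at least 1 count, TMM, edgeR 4.0.16 (R 4.3.3) with the quasi-likelihood test and no covariate, and Benjamini-Hochberg adjustment over all genes, with a threshold of 0.05. SE is the log2 fold change over the square root of F. CPM by library use TMM over all 9 libraries. An exact permutation test of 3 against 3 libraries cannot go below p = 0.1 and was not used. Reads carry no molecular identifiers and are not independent molecules, so the floors account for counting error alone. The fit was tested on simulated data with known changes.

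Replicate numbers 1 to 3 come from the labels. Deviations of libraries of the same number from their group means correlated at 0.223 to 0.546 between LAP and EV and at 0.421 to 0.577 between LIP and LAP, so there the numbers were taken to pair the libraries. The main fits and the counts drawn from them nonetheless held no term for these pairs. Only the fits with the replicate block did. The alternatives were DESeq2 1.42.0, its size factors, total counts only, filterByExpr, all 9 libraries in one model, the replicate number as a block and each library left out in turn.

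Named are all members, and of each list of related genes those past the threshold and the 3 with the highest mean CPM. Of the fibroblast and epithelial markers the 3 highest are named, and of each marker list those at 0. Other genes, such as Cdsn, Postn, Fap, Prrx1, Twist1, S100a4, Pdgfra, Pdgfrb, Lum, Upk1b and Wt1, were named outside this rule. Positions and upstream sequences come from RefSeq on GRCm38.p6, exon lengths and shared windows from GENCODE vM21. The GC box and TATA box were added after the windows were seen. Figures were drawn with matplotlib 3.10.9.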

Additional observations from a re-analysis of the deposited data

How the results depend on the processing

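Among the 10 members, edgeR called 0 in LIP against EV, and the count was 1, Dsg2, with all 9 libraries in one model (adjusted p = 0.0167), with the replicate block (0.00707) and by DESeq2 (0.000697), and 0 to 1 with each library left out. In LAP against EV the count of 0 became 1, Dsg2, with the replicate block and stayed between 0 and 0 when libraries were left out. In LIP against LAP the count of 1 became 0 with filterByExpr and 3, Dsg2, Dsp and Krt7, with the replicate block. It lay between 1 and 2 when libraries were left out. Among the 79 related genes the count of 0 in LIP against EV became 1, Cdsn, with the replicate block (log2 fold change 1.20, adjusted p = 0.0184) and by DESeq2 (1.39, adjusted p = 0.0439), and was 0 to 1 with libraries left out, where the gene was Krt14 without LIP3. In LAP against EV it was 0 to 1 with libraries left out, with Krt14 called without LAP3, and in LIP against LAP it was 2 with the replicate block and 0 to 1 with libraries left out, where the gene was Cdsn. The cause was not tested. No called value changed its sign.

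In LIP against EV, deviations of libraries of the same number correlated at -0.119 to 0.311. Their mean was 0.145, beside -0.0694 for libraries of different numbers. Numbers that pair LAP with EV and LIP with LAP would also pair LIP with EV, so whether they do so there is not settled. The calls with the block are given beside the main fits in that comparison, as in the other comparisons. Over all genes, lower and higher calls in LIP against EV were 60 and 12, and became 402 and 65 with the replicate block, 248 and 73 by DESeq2, 127 and 30 with all 9 libraries, 30 and 6 with total counts only and 3 and 1 with filterByExpr, which tested 12424 genes. In LAP against EV they were 6 and 5, and became 30 and 24 with the block, 16 and 10 by DESeq2, 2 and 3 with all 9 libraries and 1 and 2 with filterByExpr. In LIP against LAP they were 152 and 38, and became 871 and 312 with the block, 198 and 57 by DESeq2, 212 and 51 with all 9 libraries, 85 and 28 with total counts only and 1 and 1 with filterByExpr. With single libraries left out, they were 20 and 2 without EV2, 246 and 36 without LIP1 and 230 and 137 without LIP3 in LIP against EV, 21 and 41 without LAP3 in LAP against EV, and 6 and 1 without LAP2, 344 and 64 without LAP3 and 310 and 138 without LIP3 in LIP against LAP, so the shares of all genes called depend on single libraries. The replicate block changed no call of a member or of the 79 related genes beyond those given here and above. Low counts, such as the 22 to 73 reads of Krt18 per library, limit the precision.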
